A study of Drosophila melanogaster with 13 samples.

Results

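The eye pigment genes described here are 10 classical eye color genes of *Drosophila*, *w*, *st*, *bw*, *v*, *cn*, *Pu*, *pr*, *se*, *ry* and *lt*. They were picked out by symbol among the 15682 genes of the deposited count tables, by a rule that sets no threshold on their values. All 10 were present in the tables and all 10 passed the filter on low counts in every comparison. RNA-seq of adult fly heads was available from 10 libraries. The libraries labelled *trr* knockdown (n = 2) came from flies with 1 copy each of the neuronal driver Elav-Gal4, of dicer2 and of the RNAi insertion P{TRiP.HMS01019}attP2. The *trr* controls (n = 2) also had Elav-Gal4 and dicer2, and carried P{y[+t7.7]=CaryP}attP2 in place of the RNAi insertion. The libraries labelled *G9a* mutant (n = 3) came from G9aDD1 flies, and the *G9a* controls (n = 3) from G9a+/+ flies derived by precise excision. The flies were 0 to 5 days old according to the labels, and their sex was not given in the sources used here. The proteins trr and G9a are histone methyltransferases, and the question was which genes change in the head when either is lost.

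Pigment in the fly eye consists of brown ommochromes, made from tryptophan, and red pteridines, made from GTP. Both are stored in granules of the pigment cells, into which ABC transporters in the granule membrane carry the precursors. Some of the enzymes are also known from the fat body and the Malpighian tubules, so that in whole heads their RNA need not come from the eye alone.

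Several of the genes also serve as visible markers in fly stocks, which limits how their reads can be assigned. The Elav-Gal4 and dicer2 insertions of both *trr* groups carry a mini-*white* marker in a stock with a mutant *w* allele. The stock of the RNAi insertion carries mutant *y*, *sc* and *v* alleles, and its insertion is marked with *y* and *v*. The insertion of the *trr* controls is marked with *y* as well. Reads from a transgene copy and from the native gene are counted together for *w*, *v* and *y* and cannot be told apart here. Elav-Gal4 drives the hairpin in neurons and not in the pigment cells. In the Release 6 annotation *kirre* overlaps *w*, *CG43373* overlaps *st*, *mi* overlaps *bw* and *bwa* overlaps *pr*, while no gene overlaps *v*, *ry* or *lt*.

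Gene counts per library ranged from 18114408 to 28171883. Levels are given as CPM, the reads of a gene scaled to 1000000 gene counts of its library, and as mean ± SD over libraries. The targeted genes were measured first. *trr* had 94.1 and 85.9 CPM in the libraries labelled *trr* knockdown and 73.5 and 92.6 CPM in the *trr* controls. *G9a* had 74.8, 68.5 and 62.3 CPM in the libraries labelled *G9a* mutant and 60.0, 57.1 and 50.0 CPM in the *G9a* controls. Neither targeted gene showed a reduced count where its loss was labelled (log2 fold change 0.12 for *trr* and 0.27 for *G9a*, edgeR adjusted p = 0.679 and 0.188). Counts over a whole gene do not show where in it the reads lie, and the reason was not tested. The authors also measured *trr* by RT-qPCR in a further biological replicate and reported a reduction of its mRNA in whole heads. That measurement is not analysed here. One *G9a* control, replicate 3, held counts of midgut protease genes, 59.3 CPM in sum over 4 genes, against a lowest sum of 0.189 CPM among the *G9a* controls.

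Of the 10 eye pigment genes, 1 changed in the *G9a* experiment and none passed the test in the *trr* experiment. *v*, the tryptophan dioxygenase that opens ommochrome synthesis, fell to 0.559 times the control level in the libraries labelled *G9a* mutant. The group means of the transporters *w*, *st* and *bw* were within 1.2-fold of the controls in both experiments. Between the control groups, 5 of the 10 genes were higher in the *trr* controls than in the *G9a* controls. A gene was called when the quasi-likelihood test of edgeR gave a Benjamini-Hochberg adjusted p under 0.05 over all genes tested and the fold change was over 1.5. By that rule 0 of the 10 were called in the *trr* comparison, where 1.03% of 11416 genes were called. In the *G9a* comparison 1 of the 10 was called, and it was lower, where 7.56% of 12329 genes were called, 1.99% higher and 5.57% lower. The share in the *G9a* comparison is thus close to that of all genes. For the *trr* comparison, 2 of the 10 had an unadjusted p under 0.05, *cn* and *Pu*, as did 19.2% of all genes. DESeq2 called 1 of the 10 there, *cn*, where it called 510 of 11416 genes. For the *G9a* comparison, 4 of the 10 had an unadjusted p under 0.05, *v*, *Pu*, *pr* and *ry*, as did 25.5% of all genes. The median log2 fold change of the 10 was 0.09 in the *trr* comparison, against 0.00078 over all genes, and 0.01 in the *G9a* comparison, against 0.04 over all genes. The summed level of the 10 was 545.6 to 547.4 CPM in the libraries labelled *trr* knockdown and 494.1 to 507.7 CPM in the *trr* controls. It was 430.1 to 475.5 CPM in the libraries labelled *G9a* mutant and 453.1 to 478.0 CPM in the *G9a* controls.

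**Figure D1:**
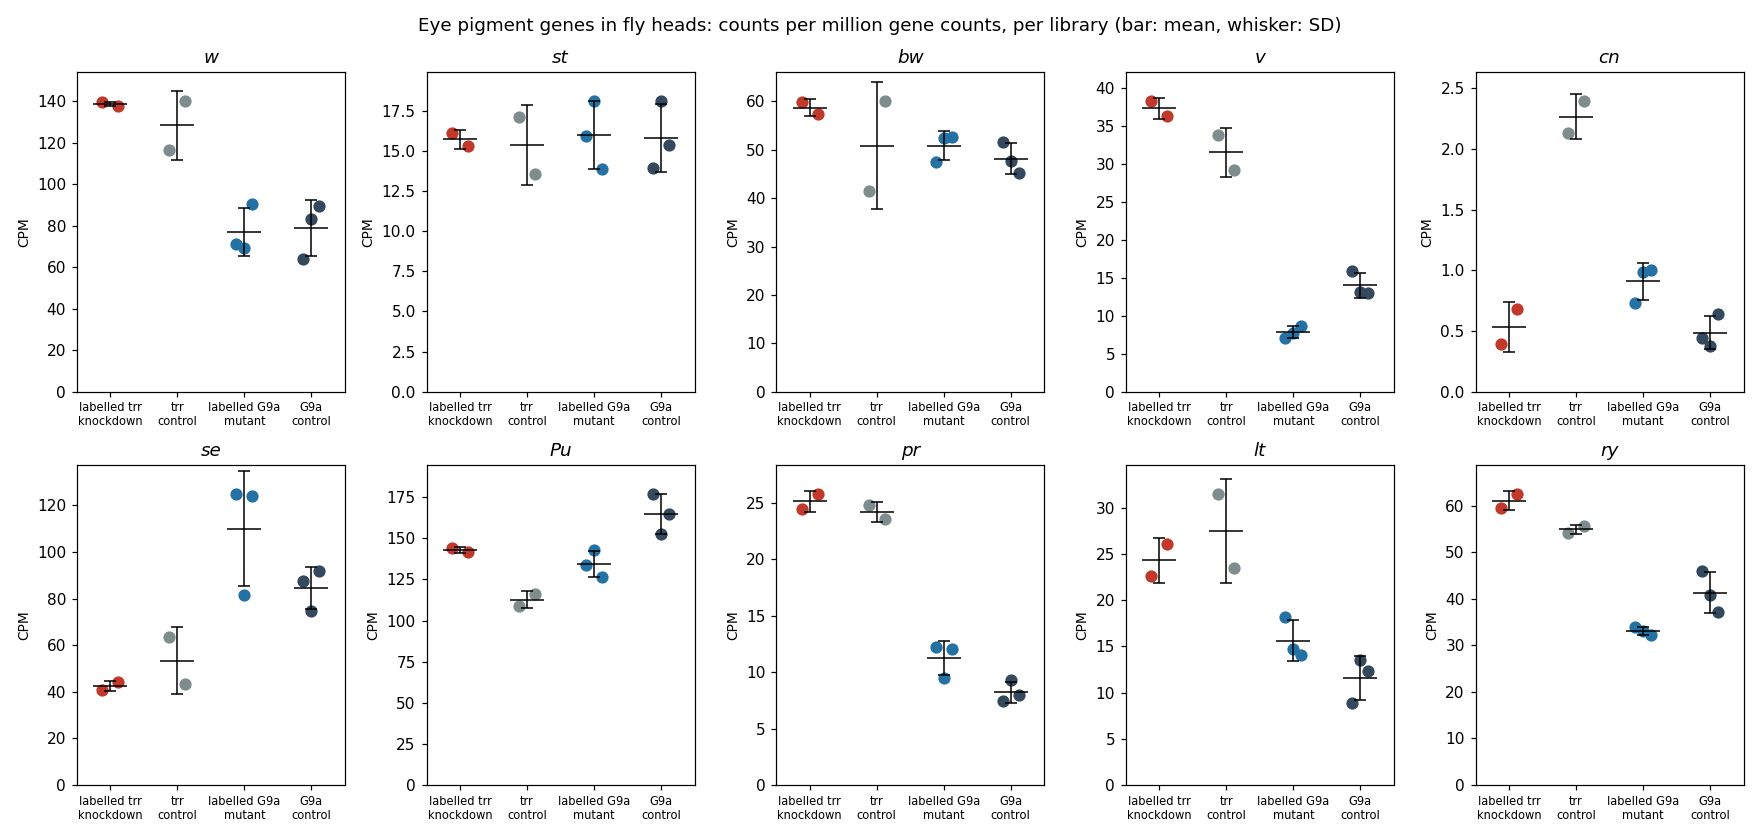
Level of each eye pigment gene in CPM (vertical axes, from 0, 1 panel per gene) in the libraries labelled *trr* knockdown, the *trr* controls, the libraries labelled *G9a* mutant and the *G9a* controls. Points are libraries, horizontal bars are means and whiskers are SDs. *v* shows 7.10 to 8.69 CPM in the libraries labelled *G9a* mutant, below the 13.0 to 15.9 CPM of the *G9a* controls. *w*, *v*, *pr*, *lt* and *ry* sit higher in both *trr* groups than in both *G9a* groups.

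The ABC transporters are half-transporters that work in pairs. The product of *w* pairs with that of *st* for ommochrome precursors and with that of *bw* for pteridine precursors. *w* had 139.3 and 137.7 CPM in the libraries labelled *trr* knockdown, against 116.5 and 140.0 CPM in the *trr* controls. In the *G9a* experiment it had 71.0, 69.4 and 90.2 CPM in the libraries labelled *G9a* mutant, against 63.7, 83.2 and 89.3 CPM in the *G9a* controls. The groups overlapped in both experiments. The log2 fold change was 0.11 (95% interval -0.19 to 0.42) in the *trr* comparison and -0.07 (-0.42 to 0.28) in the *G9a* comparison. Leaving out *trr* control replicate 1, the lower of the *trr* controls, turned the *trr* value to -0.05.

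*st* was the steadiest of the 10 across the study. It had 16.1 and 15.3 CPM in the libraries labelled *trr* knockdown, against 17.1 and 13.6 CPM in the *trr* controls. It had 15.9, 18.1 and 13.9 CPM in the libraries labelled *G9a* mutant, against 13.9, 18.1 and 15.4 CPM in the *G9a* controls. Over all 10 libraries the highest value was 1.33 times the lowest, and all 4 groups overlapped. *bw* had 59.9 and 57.4 CPM in the libraries labelled *trr* knockdown, against 41.5 and 60.1 CPM in the *trr* controls. *bw* had 47.4, 52.4 and 52.7 CPM in the libraries labelled *G9a* mutant, against 51.5, 47.8 and 45.2 CPM in the *G9a* controls. These groups overlapped as well, and *trr* control replicate 1 was the lowest of all libraries for *bw*. The log2 fold changes of *st* were 0.04 (-0.32 to 0.41) and -0.02 (-0.34 to 0.31), and those of *bw* 0.20 (-0.27 to 0.68) and 0.04 (-0.18 to 0.27), in the *trr* and the *G9a* comparison. A p that misses the threshold does not show that the groups were alike, and these intervals give the changes the data allow.

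The ommochrome enzymes in the list are *v* and *cn*. *v* had 7.10, 7.71 and 8.69 CPM in the libraries labelled *G9a* mutant, against 15.9, 13.1 and 13.0 CPM in the *G9a* controls. Every mutant library was below every control, with group means of 7.84 ± 0.803 and 14.0 ± 1.63 CPM (SD, n = 3 each). The log2 fold change was -0.87 (SE 0.140, edgeR adjusted p = 0.00685). *v* was called under each of the 14 alternative settings of this comparison, with log2 fold changes between -0.95 and -0.77 and adjusted p between 0.000245 and 0.0351 over them. In the *trr* experiment *v* had 38.3 and 36.3 CPM in the libraries labelled *trr* knockdown, against 33.7 and 29.3 CPM in the *trr* controls. These groups did not overlap either, but the log2 fold change of 0.25 (SE 0.109) did not pass the test (edgeR adjusted p = 0.280). The RNAi insertion is marked with *v*, and the part of the transgene copy in these *trr* values was not tested.

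Other markers also differed in the *G9a* experiment, in which *v* fell. *v* is also expressed in the fat body. Of 7 fat body genes 3, *Lsp2*, *apolpp* and *Apoltp*, were called lower in the libraries labelled *G9a* mutant, where 5.57% of all genes were. Their log2 fold changes were -1.22, -0.82 and -0.96. *fit*, of the same list, ran the other way, with 10.9 to 11.4 CPM in the libraries labelled *G9a* mutant and 2.32 to 7.81 CPM in the *G9a* controls (log2 fold change 1.22, edgeR adjusted p = 0.0861), and DESeq2 called it. The summed level of the 7 fat body genes was 2381 to 3432 CPM in the libraries labelled *G9a* mutant and 3398 to 7803 CPM in the *G9a* controls, and none of them was at 0 in a whole group. In the *G9a* controls the mean sum was 5094 CPM, of which the yolk protein genes *Yp1*, *Yp2* and *Yp3* made up 2066, 1132 and 1269 CPM. These were highest in *G9a* control replicate 3, at 3163, 1800 and 2145 CPM, so that the sum mostly follows the yolk protein genes. The male-specific RNAs *roX1* and *roX2* summed to 1105 to 1362 CPM in the libraries labelled *G9a* mutant and 672.9 to 905.1 CPM in the *G9a* controls. Of 12 photoreceptor genes 4 (*Rh3*, *Rh5*, *trpl* and *Arr1*) were called higher in the libraries labelled *G9a* mutant, where 1.99% of all genes were. The sum over all 12 was 82663 to 88645 CPM in the libraries labelled *G9a* mutant and 58909 to 67598 CPM in the *G9a* controls. The lens gene *Crys* was lower, with 60.3 to 65.9 CPM in the libraries labelled *G9a* mutant and 80.4 to 114.6 CPM in the *G9a* controls (log2 fold change -0.69, edgeR adjusted p = 0.0168), as was the flight muscle gene *Act88F* (-0.62, edgeR adjusted p = 0.0170). For the retinal pigment cell, 0 of 3 marker genes (*Pdh*, *rdhB* and *pinta*) were called by edgeR or DESeq2, 0 had an unadjusted p under 0.05, and their sum was 1495 to 2145 CPM in the libraries labelled *G9a* mutant and 1530 to 1910 CPM in the *G9a* controls. Of 4 Malpighian tubule genes, 3 were tested and 0 were called by edgeR or DESeq2 or had an unadjusted p under 0.05, and *Uro*, the fourth, had 4 reads in 1 mutant library and 0 in all others, with sums over the list of 61.1 to 71.2 CPM in the libraries labelled *G9a* mutant and 63.2 to 75.6 CPM in the *G9a* controls. Their part in the fall of *v* was not tested, and in whole heads fewer cells of a type and less RNA per cell cannot be told apart.

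*cn*, the kynurenine monooxygenase of the ommochrome pathway, was counted least of the 10. It had 11 and 18 reads in the libraries labelled *trr* knockdown, against 57 and 67 reads in the *trr* controls, or 0.391 and 0.682 CPM against 2.13 and 2.40 CPM. Both knockdown libraries were thus below both controls, with means of 0.536 ± 0.206 CPM in the knockdown and 2.27 ± 0.185 CPM in the controls (SD, n = 2 each). The log2 fold change of -2.08 (SE 0.349) did not pass the test (edgeR adjusted p = 0.0670), while DESeq2 called it (adjusted p = 0.0215). It was also called by edgeR without *trr* control replicate 1 (adjusted p = 1.56e-07) and without *trr* control replicate 2 (adjusted p = 4.19e-06), fits in which the lone control is assumed to vary like the other group. Over all alternatives to this comparison the adjusted p of *cn* ran between 1.56e-07 and 0.916. In the *G9a* experiment *cn* had 15, 25 and 25 reads in the libraries labelled *G9a* mutant, against 8, 8 and 13 reads in the *G9a* controls. The groups did not overlap (0.735 to 1.01 CPM in the mutant and 0.378 to 0.642 CPM in the controls), and the log2 fold change was 0.86 (SE 0.489, edgeR adjusted p = 0.316). An antisense RNA gene, *asRNA:CR45108*, overlaps *cn* in the Release 6 annotation, and the strand setting of the counting is not given in the sources used here, so that reads of either strand may be included.

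Marker genes also differed in the *trr* experiment. Of 7 fat body genes 2, *Yp1* and *Yp3*, were lower in the libraries labelled *trr* knockdown (log2 fold changes -1.15 and -0.96, edgeR adjusted p = 0.0380 and 0.0480). Over all genes, 1.03% were called in either direction. Log2 fold changes were positive for 3 of the 7, *Lsp2* (0.098), *apolpp* (0.10) and *fit* (0.24), none of them called. The fat body sum was 5469 to 5676 CPM in the libraries labelled *trr* knockdown and 7389 to 9652 CPM in the *trr* controls. In the *trr* controls its mean was 8520 CPM, of which *Yp1* and *Yp3* made up 2951 and 2564 CPM. The midgut protease gene *alphaTry* was higher, with 1.21 and 1.33 CPM in the libraries labelled *trr* knockdown and 0 and 0.0358 CPM in the *trr* controls. The sum of *roX1* and *roX2* was 1749 to 1904 CPM in the libraries labelled *trr* knockdown and 2206 to 2282 CPM in the *trr* controls. None of the 3 retinal pigment cell genes was called by edgeR or DESeq2, 1 had an unadjusted p under 0.05, and their sum was 2286 to 2287 CPM in the libraries labelled *trr* knockdown and 1509 to 1861 CPM in the *trr* controls. Their part in the values of *cn* was not tested.

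The pteridine enzymes in the list are *Pu*, *pr*, *se* and *ry*. *Pu*, the GTP cyclohydrolase at the entry of the pathway, had 144.2 and 141.6 CPM in the libraries labelled *trr* knockdown, against 109.1 and 116.4 CPM in the *trr* controls. It had 133.7, 142.9 and 126.7 CPM in the libraries labelled *G9a* mutant, against 176.8, 152.5 and 165.0 CPM in the *G9a* controls. The groups were apart in both experiments, with the knockdown above its controls and the mutant below its own. Neither difference passed the test alone, with log2 fold changes of 0.34 (SE 0.0923, edgeR adjusted p = 0.141) and -0.33 (SE 0.0945, edgeR adjusted p = 0.0657). *CG4286* and a tRNA gene overlap *Pu*.

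*pr*, the pyruvoyl tetrahydropterin synthase of the next step, had 24.5 and 25.8 CPM in the libraries labelled *trr* knockdown, against 24.8 and 23.6 CPM in the *trr* controls. *pr* had 12.2, 9.53 and 12.0 CPM in the libraries labelled *G9a* mutant, against 7.45, 9.27 and 8.01 CPM in the *G9a* controls. The *trr* groups overlapped, and the *G9a* groups were apart by a narrow margin. The log2 fold changes were 0.06 (SE 0.109, edgeR adjusted p = 0.785) and 0.42 (SE 0.155, edgeR adjusted p = 0.141) in the *trr* and the *G9a* comparison.

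*se*, which makes a precursor of the red drosopterins, had the highest coefficient of variation of the 10 genes in the *trr* controls (26.6%) and in the libraries labelled *G9a* mutant (22.6%). It had 40.9 and 44.1 CPM in the libraries labelled *trr* knockdown, against 63.5 and 43.4 CPM in the *trr* controls. *se* had 124.8, 81.4 and 124.0 CPM in the libraries labelled *G9a* mutant, against 87.4, 74.5 and 92.0 CPM in the *G9a* controls. Groups overlapped in both experiments. *trr* control replicate 2 lay between the libraries labelled *trr* knockdown, and *G9a* mutant replicate 2 lay among the *G9a* controls. *GstO2* overlaps *se*. The log2 fold changes were -0.32 (95% interval -0.74 to 0.10) and 0.35 (-0.06 to 0.76) in the *trr* and the *G9a* comparison.

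*ry*, the xanthine dehydrogenase, had 59.6 and 62.4 CPM in the libraries labelled *trr* knockdown, against 54.2 and 55.6 CPM in the *trr* controls. It had 34.0, 33.0 and 32.2 CPM in the libraries labelled *G9a* mutant, against 46.0, 40.8 and 37.1 CPM in the *G9a* controls. Like those of *Pu*, the groups of *ry* were apart in both experiments, above the controls in the knockdown and below them in the mutant. The log2 fold changes of 0.16 (SE 0.0935, edgeR adjusted p = 0.392) and -0.35 (SE 0.111, edgeR adjusted p = 0.0871) did not pass the test.

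*lt* encodes the Vps41 subunit of the HOPS complex, which tethers vesicles on their way to the pigment granule. It had 22.6 and 26.0 CPM in the libraries labelled *trr* knockdown, against 31.5 and 23.5 CPM in the *trr* controls. It had 18.2, 14.7 and 14.1 CPM in the libraries labelled *G9a* mutant, against 8.89, 13.5 and 12.3 CPM in the *G9a* controls. The *trr* groups overlapped and the *G9a* groups did not. The log2 fold changes were -0.17 (SE 0.159, edgeR adjusted p = 0.566) and 0.40 (SE 0.179, edgeR adjusted p = 0.209). Without *trr* control replicate 1 the *trr* value was 0.01. In all, 4 of the 10 genes had groups that did not overlap in the *trr* experiment (*v*, *Pu* and *ry* higher and *cn* lower), where 57.1% of all genes did so, 29.7% higher and 27.4% lower. In the *G9a* experiment 6 did not overlap (*cn*, *pr* and *lt* higher and *v*, *Pu* and *ry* lower), where 32.1% of all genes did so, 17% higher and 15.1% lower.

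**Figure D2:**
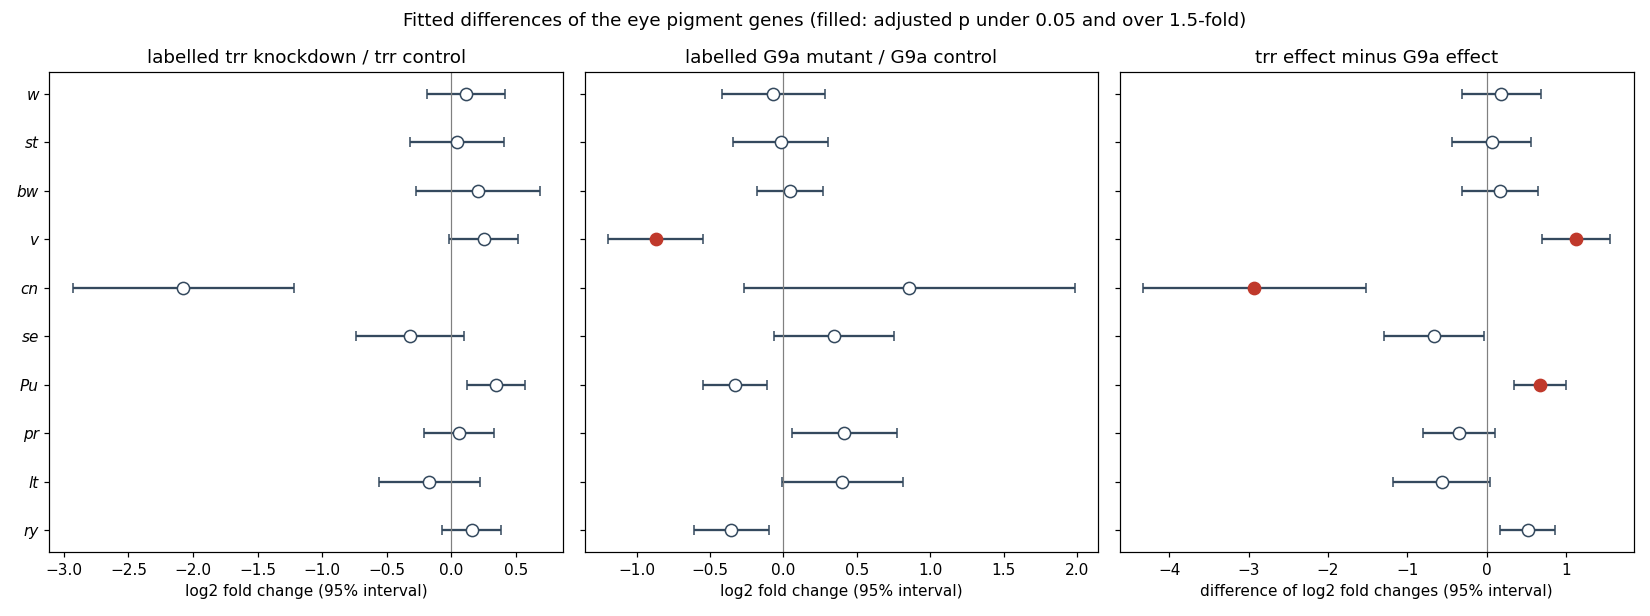
Fitted log2 fold change of each eye pigment gene (points, 95% intervals as bars) in the *trr* comparison (left) and the *G9a* comparison (middle), and the difference between them (right, *trr* effect minus *G9a* effect). Horizontal axes are on the log2 scale and differ in range, and filled points passed the test: *v* at -0.87 in the middle, and *v* at 1.12, *cn* at -2.93 and *Pu* at 0.67 on the right.

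The difference between the *trr* and the *G9a* effect was then tested in 1 fit over all 10 libraries. The experiments share no library. Of the 10 genes 3 differed, *v*, *cn* and *Pu*, where 9.26% of 12871 genes did. For *v* the *trr* effect exceeded the *G9a* effect by 1.12 on the log2 scale (SE 0.194, edgeR adjusted p = 0.00551). For *Pu* it exceeded it by 0.67 (SE 0.148, edgeR adjusted p = 0.0176). For *cn* the difference was -2.93 (SE 0.633, edgeR adjusted p = 0.0164), with the *trr* effect below the *G9a* effect. For *v*, the part of the marker copy on the RNAi insertion in the difference was not tested. *v* kept its call when any 1 library was left out. *cn* lost it without *trr* knockdown replicate 1 (adjusted p = 0.109), and *Pu* lost it without *trr* knockdown replicate 1 (0.0988), *trr* knockdown replicate 2 (0.0696) or *trr* control replicate 1 (0.0613). *ry* (0.51, adjusted p = 0.0675 by edgeR) and *se* (-0.66, adjusted p = 0.182) did not pass. For the transporters the differences were 0.18 for *w*, 0.06 for *st* and 0.16 for *bw*, with 95% intervals that spanned 0.

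The control groups themselves differed in eye pigment genes. They differ in genotype and belong to different experiments, which cannot be told apart. In the same fit, 5 of the 10 genes were called higher in the *trr* controls than in the *G9a* controls and 0 lower, where 23.2% of 12871 genes were called in either direction, 14% higher and 9.21% lower. DESeq2 called 6, with *se* lower, where it called 3008 of 12871 genes. *Pu* and *ry* also had an adjusted p under 0.05 but changed by less than 1.5-fold, so that 7 of the 10 passed on the adjusted p alone, where 32.8% of all genes did. An unadjusted p under 0.05 was found for 8. The share over all genes was not counted for it, so that this count cannot be judged here. The median log2 fold change of the 10 was 0.66, against 0 over all genes.

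*cn* had the largest difference, with 2.27 ± 0.185 CPM in the *trr* controls (n = 2) and 0.487 ± 0.138 CPM in the *G9a* controls (n = 3), a log2 fold change of 2.30 (SE 0.435, edgeR adjusted p = 0.00222). *pr* followed with 24.2 ± 0.889 CPM in the *trr* controls and 8.24 ± 0.931 CPM in the *G9a* controls (log2 fold change 1.65, edgeR adjusted p = 1.39e-05). *lt* had 27.5 ± 5.63 CPM in the *trr* controls and 11.6 ± 2.40 CPM in the *G9a* controls (1.34, edgeR adjusted p = 0.000380). These genes lie on autosomes and none of them is a marker of the stocks named above, and the cause of their differences was not tested. *v* had 31.5 ± 3.17 CPM in the *trr* controls and 14.0 ± 1.63 CPM in the *G9a* controls (1.26, edgeR adjusted p = 5.32e-05). *w* had 128.3 ± 16.6 CPM in the *trr* controls and 78.8 ± 13.4 CPM in the *G9a* controls (0.80, edgeR adjusted p = 0.00274). Mini-*white* is carried by the *trr* groups, and the part of the transgene copies in the level of *w* was not tested. The partners of *w* were not called, with log2 fold changes of 0.05 for *st* (95% interval -0.30 to 0.40) and 0.18 for *bw* (-0.16 to 0.52), beside the interval of 0.46 to 1.15 for *w*. The difference between *w* and its partners was not tested. Among the other stock markers, *y* had 0.710 and 0.682 CPM in the libraries labelled *trr* knockdown. It had 2.88 and 1.32 CPM in the *trr* controls and at most 0.442 CPM in the *G9a* libraries. The insertions of both *trr* groups are marked with *y*, and the part of the transgene copies in these values was not tested.

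*Pu* ran the other way, with 112.8 ± 5.16 CPM in the *trr* controls and 164.8 ± 12.2 CPM in the *G9a* controls (log2 fold change -0.45, edgeR adjusted p = 0.00790). *ry* had 54.9 ± 0.985 CPM in the *trr* controls and 41.3 ± 4.46 CPM in the *G9a* controls (0.51, edgeR adjusted p = 0.00515). *se* had 53.4 ± 14.2 CPM in the *trr* controls and 84.6 ± 9.08 CPM in the *G9a* controls, and missed the threshold (-0.57, edgeR adjusted p = 0.0532). It was called by DESeq2 (-0.63, adjusted p = 0.00936), with RLE normalization, with the filterByExpr filter and without *trr* control replicate 1, *G9a* mutant replicate 2 or *G9a* control replicate 2 (adjusted p = 0.0299, 0.0156 and 0.0483). In all, 8 of the 10 had control groups that did not overlap, 6 higher and 2 lower in the *trr* controls, where 55.6% of all genes did so, 25.6% higher and 30% lower. The *roX1* and *roX2* sum was 2206 to 2282 CPM in the *trr* controls and 672.9 to 905.1 CPM in the *G9a* controls. The fat body sum was 7389 to 9652 CPM in the *trr* controls and 3398 to 7803 CPM in the *G9a* controls, and the lens gene *Crys* was lower in the *trr* controls, with a log2 fold change of -4.06. Of the 12 photoreceptor genes 5 (*ninaE*, *Rh4*, *Rh5*, *Rh6* and *Arr1*) were called higher in the *trr* controls, where 14% of all genes were. The sum over all 12 was 86099 to 96301 CPM in the *trr* controls and 58909 to 67598 CPM in the *G9a* controls. The glial gene *Gs2* was higher in the *trr* controls (log2 fold change 1.27) and so was the flight muscle gene *fln* (1.40), while *Act88F* was lower (-1.63). The retinal pigment cell genes had 0 of 3 called by edgeR or DESeq2 and 1 with an unadjusted p under 0.05, with sums of 1509 to 1861 CPM in the *trr* controls and 1530 to 1910 CPM in the *G9a* controls. The part of these in the differences of the eye pigment genes was not tested.

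**Figure D3:**
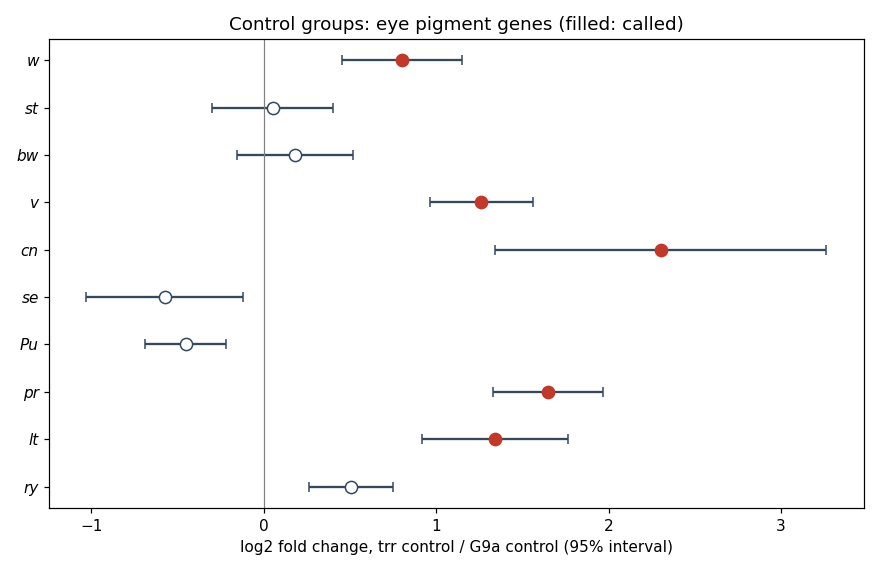
Log2 fold change of each eye pigment gene between the *trr* controls and the *G9a* controls (points, 95% intervals as bars), so that values to the right of 0 are higher in the *trr* controls. Filled points were called: *cn* at 2.30, *pr* at 1.65, *lt* at 1.34, *v* at 1.26 and *w* at 0.80.

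The share that each gene took of the counts of the 10 also differed between the experiments. *w* made up 25.3% in the libraries labelled *trr* knockdown and 25.6% in the *trr* controls, and 16.8% in both *G9a* groups. *se* made up 7.77% in the libraries labelled *trr* knockdown and 10.7% in the *trr* controls. Its share was 24.1% in the libraries labelled *G9a* mutant and 18.1% in the *G9a* controls. *v* made up 1.72% in the libraries labelled *G9a* mutant and 3.00% in the *G9a* controls. These are shares of reads and depend on transcript length, so that they do not rank the genes by molecules.

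Other genes of the same pathways were then counted from lists of textbook members. The first list holds genes of purine synthesis, which supplies the GTP from which pteridines are made. Of 7 genes of guanine nucleotide supply 3 fell in the libraries labelled *G9a* mutant and 0 rose, where 5.57% of all genes fell and 1.99% rose, and all 7 fold changes were negative, with a median of -0.38 against 0.04 over all genes. *Paics*, which acts at the middle of purine synthesis, had 65.8, 62.5 and 69.1 CPM in the libraries labelled *G9a* mutant, against 179.0, 175.9 and 173.2 CPM in the *G9a* controls (log2 fold change -1.45, SE 0.0820, edgeR adjusted p = 8.64e-05). *Prat2*, an amidotransferase of the first step, had 128.4, 106.6 and 120.9 CPM in the libraries labelled *G9a* mutant, against 220.3, 274.1 and 216.9 CPM in the *G9a* controls (-1.03, SE 0.120, edgeR adjusted p = 0.00149). *Gart*, an enzyme of several steps, had 48.6, 51.4 and 53.3 CPM in the libraries labelled *G9a* mutant, against 83.7, 76.7 and 93.9 CPM in the *G9a* controls (-0.77, SE 0.105, edgeR adjusted p = 0.00315). Mutant and control libraries did not overlap for any of the 3.

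In the *trr* comparison 0 of these 7 genes were called by edgeR or DESeq2, and 2 had an unadjusted p under 0.05. The values of *Paics* were 400.0 and 418.6 CPM in the libraries labelled *trr* knockdown and 439.0 and 382.3 CPM in the *trr* controls. The *trr* effect exceeded the *G9a* effect by 1.46 for *Paics*, 1.24 for *Gart* and 0.86 for *Prat2* on the log2 scale (edgeR adjusted p = 0.000131, 0.00185 and 0.0117). Between the control groups, *Paics*, *Prat2* and *Adsl* were higher in the *trr* controls than in the *G9a* controls, by 1.32, 0.88 and 1.02 on the log2 scale.

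Of 10 other tested pteridine genes 1 fell in the *G9a* comparison and 0 rose, with a median of -0.14. It was *Hn*, the phenylalanine hydroxylase, with 67.0, 72.6 and 67.9 CPM in the libraries labelled *G9a* mutant, against 87.3, 105.6 and 113.1 CPM in the *G9a* controls (log2 fold change -0.59, SE 0.109, edgeR adjusted p = 0.0121). In the *trr* comparison 0 of the 10 were called by edgeR, 2 had an unadjusted p under 0.05 and DESeq2 called 1. Between the control groups edgeR called 5 of the 10, where it called 14% of all genes higher and 9.21% lower. Higher in the *trr* controls were 4, *Pcd* by 0.71, *Hn* by 0.95, *DhpD* by 0.63 and *cin* by 2.01 (log2 scale). The other, *Uba4*, was lower, at -0.78. DESeq2 called only 3, *Hn*, *Pcd* and *Uba4*, so that *DhpD* and *cin* were called by edgeR alone. Few reads underlie *cin*: each *G9a* control held 1, 5 or 7 (edgeR adjusted p = 0.0447). Of the 3 other ommochrome genes, *Kyat*, *kar* and *cd*, 0 were called by edgeR or DESeq2 in either experiment, with unadjusted p under 0.05 for 1 in the *trr* and 2 in the *G9a* comparison. *cd* had 19.7, 21.1 and 16.5 CPM in the libraries labelled *G9a* mutant, against 13.4, 14.4 and 13.0 CPM in the *G9a* controls, a log2 fold change of 0.46 under the 1.5-fold limit (edgeR adjusted p = 0.0486).

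Of 17 tested genes of granule trafficking, to which *lt* is closest in function, 0 were called by edgeR in the *trr* or in the *G9a* comparison. Unadjusted p were under 0.05 for 2 in the *trr* comparison, where DESeq2 called 1, and for 4 in the *G9a* comparison, where DESeq2 called 0. *Blos2*, a subunit of the BLOC-1 complex, had 2.02 and 1.18 CPM in the libraries labelled *trr* knockdown, against 16.9 and 5.04 CPM in the *trr* controls. In the *G9a* experiment it had 18.3, 12.2 and 14.9 CPM in the libraries labelled *G9a* mutant, against 14.7, 15.4 and 13.8 CPM in the *G9a* controls. The knockdown libraries were the lowest of all 10, and the *trr* effect on *Blos2* was below the *G9a* effect (-2.76, SE 0.586, edgeR adjusted p = 0.0151). *Vps11*, a subunit of the HOPS complex like *lt*, was higher in the *trr* controls than in the *G9a* controls by 2.12 on the log2 scale (edgeR adjusted p = 0.000149). *or*, a subunit of the AP-3 adaptor, was higher there by 0.66 (edgeR adjusted p = 0.0127).

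**Figure D4:**
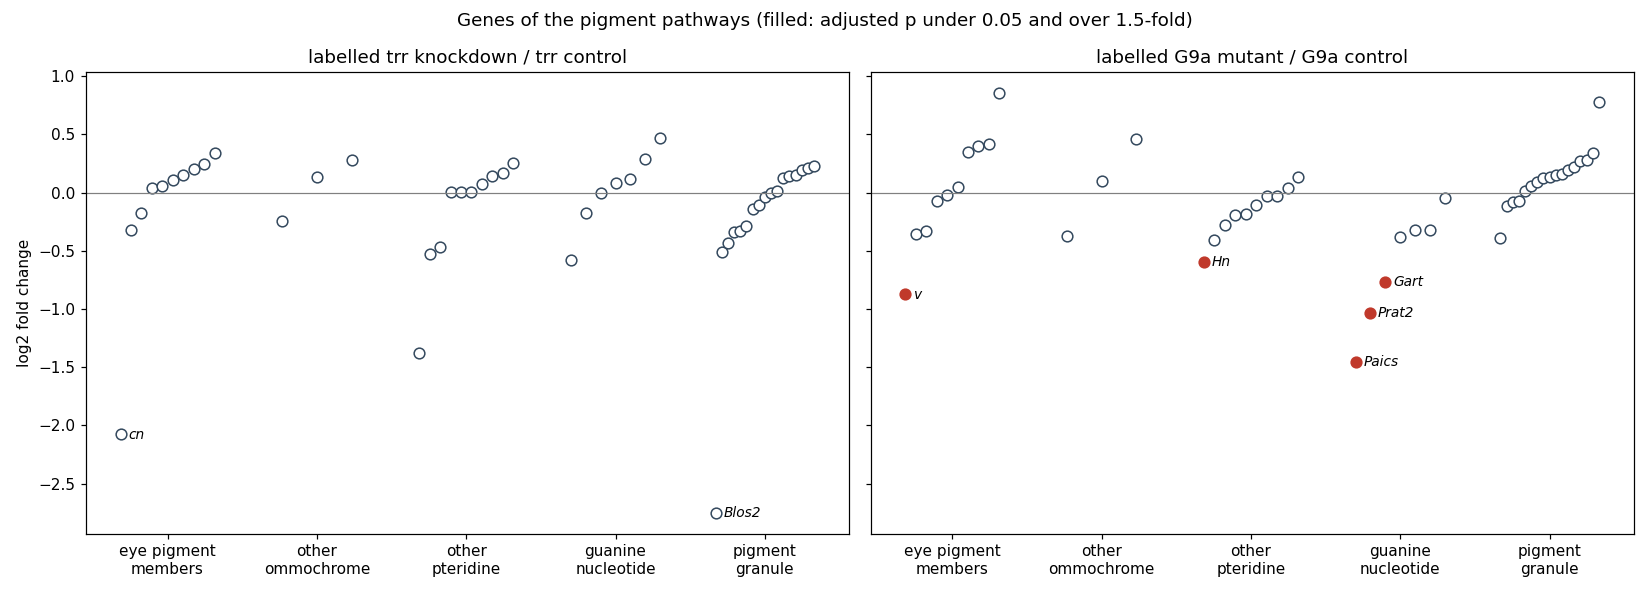
Log2 fold change (vertical axis) of every tested gene in 5 lists, in the *trr* comparison (left) and the *G9a* comparison (right), sorted within each list. Filled points were called: *v*, *Hn*, *Gart*, *Prat2* and *Paics*, all negative and all in the *G9a* comparison, while *cn* and *Blos2* are named on the left as the lowest open points of their lists, at -2.08 and -2.75.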

How the data were processed

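Heads were taken from frozen flies with sieves, and mRNA of biological replicates was sequenced in 36 bp reads. Per the labels and the study's methods, the authors aligned reads to BDGP R5/dm3 with BWA 0.6.1, allowing 1 mismatch, and used HTSeq-count on the uniquely mapped reads. What the authors deposited are raw counts, without normalization. The 5 summary lines of each table were not used. Among them, reads outside genes were 9.29% to 18.0% of a table, ambiguous reads 1.58% to 2.55% and unaligned reads 7.86% to 20.4%. Symbols and overlapping genes came from a Release 6 table, which matched 15001 of 15682 identifiers. The deposited trr binding sites were not used.

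Comparisons were made in R 4.3.3 with edgeR 4.0.16, with TMM normalization, a minimum of 10 counts in total over the fitted libraries and Benjamini-Hochberg adjustment over all genes tested. The *trr* and *G9a* comparisons were fitted alone, the other comparisons over all 10 libraries. Intervals are 95% intervals of the fit and are not adjusted. The code was tested on simulated data. The alternatives were RLE normalization, DESeq2 1.42.0, other filters, the adjusted p alone, the replicate number as a block, 1 fit for all libraries, the share of reads outside genes as a covariate, and leaving out each library. Same-numbered *G9a* libraries deviated together (correlations 0.18, 0.18 and 0.39). Libraries numbered 1 and 2 also did so when crossed (0.11 and 0.14), while number 3 was opposed to both (-0.30 to -0.19). The main fits hold no replicate block, which was fitted as an alternative. With the block *v* kept its call in the *G9a* comparison (log2 fold change -0.87, edgeR adjusted p = 0.0125). No source names a shared batch.

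All 10 members are named. Other genes of the pathway lists are named where they were called in a comparison, with at most 3 uncalled ones per list. Marker lists are given by counts and sums, and single markers named from them were chosen after their values were seen. *KFase*, *AOX1*, *Vps16A*, *red* and *mah* were not matched and are not analysed here. *Mocs2A* and *Mocs2B* had no reads. The members and lists were chosen with earlier results of these data known.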

Additional observations from a re-analysis of the deposited data

Results flagged for a closer look

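For 3 of the eye pigment genes the effects in the 2 experiments differed by the test of the difference itself (edgeR over all 10 libraries). The *trr* effect exceeded the *G9a* effect by 1.12 on the log2 scale for *v* (adjusted p = 0.00551) and by 0.67 for *Pu* (adjusted p = 0.0176). It was below the *G9a* effect for *cn*, at -2.93 (adjusted p = 0.0164). The RNAi insertion is marked with *v*, and the part of the transgene copy in the *v* value was not tested.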

How the results depend on the processing

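In the *trr* comparison the number of genes called was 118, and it was 510 with DESeq2, 29 with no filter, 246 with all 10 libraries in 1 fit and 0 to 2009 with 1 library left out. With the replicate number as a block it was 819. The same-numbered *trr* libraries deviated in opposite directions (correlation -0.22), and with a crossed pairing, added after seeing the data, 902 genes and 1 member were called. The members called, 0, became 1 (*cn*) with DESeq2 and with the block, and 0 to 1 with 1 library left out. The difference of the effects gave 1192 genes and 3 members, and 377 to 1596 genes and 1 to 3 members with 1 library left out, the lowest being without *trr* knockdown replicate 1, where *v* alone was called. In the *G9a* comparison and between the controls no count moved by over 1.5 times, and the block changed no other call. Of 570 results of single members under alternatives, 534 kept their direction and side of the threshold, 13 passed it, 4 lost it and 19 changed sign. The sign changes are all of *w*, *st*, *bw* or *lt*, none of which was called there. With 1 library left out, the *trr* comparison gave -0.050 to 0.29 for *w*, -0.086 to 0.18 for *st*, -0.069 to 0.53 for *bw* and -0.34 to 0.011 for *lt*, and the *G9a* comparison gave -0.20 to 0.024 for *w*, -0.11 to 0.081 for *st* and -0.0099 to 0.10 for *bw*. Between the controls *st* ran between -0.10 and 0.18 and *bw* between -0.15 and 0.43, and *st* was at -0.0013 with RLE and -0.0019 with DESeq2. In the difference *st* ran between -0.067 and 0.20 and *bw* between -0.11 and 0.49. The cause was not tested. The planned level per coding length was not run. With 2 *trr* libraries a group and 8 to 67 reads, *cn* is the member whose values depth limits most.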
